A study of Mus musculus with 6 samples.

Results

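The nuclear genes for subunits of the mitochondrial respiratory chain and ATP synthase were followed in mandibular condylar cartilage, the growth cartilage on the condyle of the lower jaw, in control mice and in mice lacking Indian hedgehog (Ihh) in craniofacial neural crest cells. Members were chosen by symbol, as the numbered Ndufa, Ndufb, Ndufc, Ndufs, Ndufv and Ndufab genes, the 4 Sdh genes, the Uqcr genes, the Cox genes of the numbers 4 to 8, the Atp5 genes, Cyc1 and Cycs. This rule took 87 of the 24346 gene symbols measured. They fell into 38 genes of complex I, 4 of complex II, 9 of complex III with Cyc1, cytochrome c (Cycs) as 1 gene, 15 of complex IV, 3 muscle isoforms of complex IV kept apart (Cox6a2, Cox7a1 and Cox8b) and 17 of complex V. The grouping follows the symbols. Ndufa4, named for complex I, is now counted among the subunits of complex IV. Cox7a2l takes part in assembling supercomplexes, and Atp5s and Atp5sl are not structural subunits of ATP synthase.

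The control group, labelled fl/fl, and the mutant group each had 3 libraries of dissected condylar cartilage. The labels used here do not state the allele of Ihh, the Cre driver, the age of the mice or how many animals gave tissue. They mention more than 1 group behind each of control and mutant without naming them, and say that mutants were checked for Ihh, Cre and Tomato. Whether each library stands for its own animal is not stated, and p-values therefore reflect the scatter of these libraries, part of which may be technical. In pieces of tissue such as these, fewer cells of a type and less RNA per cell cannot be told apart.

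Complex I takes electrons from NADH and complex II from succinate, both pass them through ubiquinone to complex III, cytochrome c carries them to complex IV, and complex V uses the resulting proton gradient to make ATP. The chain is dense in skeletal muscle, heart and brown fat, whereas chondrocytes, which lie in tissue with few vessels, rely strongly on glycolysis. Subunits 6a, 7a and 8 of complex IV exist as a broadly expressed isoform and as an isoform of skeletal muscle and heart, so that each pair can be read as a ratio within a library.

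Values are FPKM, fragment numbers divided by the length of the transcript and scaled to the mapped fragments of the library, and a log2 fold change is mutant minus control on log2(FPKM + 1), a scale that understates the change of low genes. Ihh itself measured 3.73, 2.51 and 3.74 FPKM in the control libraries, in the order 1, 2, 3 used throughout, against 2.18, 2.33 and 2.66 FPKM in the mutant libraries. These groups overlapped (limma adjusted p = 0.724), whereas the hedgehog target Gli1 fell from 8.70 ± 1.39 to 0.516 ± 0.323 FPKM (mean ± SD, n = 3 per group, adjusted p = 0.0152). The number of fragments per library is unknown, but the most common ratio of low values put the totals of the other libraries at 0.993 to 1.331 times that of control 1. Xist was high in controls 1 and 2 (29.5 and 29.2 FPKM) and at most 0.984 FPKM in the other libraries, and the Y-linked Eif2s3y was at or below 0.890 FPKM in the former and 38.4 to 47.4 FPKM in the latter, so that only control 3 matched the mutants in sex. Of 24 skeletal muscle markers 10 rose, beside 0.775% of all genes tested, and their summed level was 5280 to 13014 FPKM in the controls and 21181 to 38759 FPKM in the mutants. Of 7 chondrocyte markers 3 fell, beside 0.465% of all genes (summed level 274 to 366 and 107 to 167 FPKM, with Matn1 listed at 0 in part of the libraries), and of 5 endothelial markers 1 rose (38.1 to 78.1 and 116 to 125 FPKM). These calls depended on single libraries: 0 muscle markers passed without control 1, control 2 or mutant 1, 2 without mutant 2, 11 without control 3 and 16 without mutant 3. The chondrocyte calls numbered 2 without mutant 2 and 1 without any other single library, and of the endothelial markers 2 passed without control 3 or mutant 3 and 0 without any other single library.

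The comparison of mutant with control cartilage gave higher mean levels for most of the chain, and no member passed the test. The summed FPKM of all 87 members was 20033, 17892 and 26706 in the control libraries and 49722, 53592 and 27360 in the mutant libraries. These sums were 3.45%, 3.0% and 4.19% of all FPKM in the controls and 7.63%, 7.26% and 4.30% in the mutants. Mutants 1 and 2 thus stood far above all controls, whereas mutant 3 lay only just above control 3. The log2 fold change was above 0 for 81 of 87 members, beside 50.1% of the 18715 genes tested. The median was 0.93 over the members and 0.001 over all genes tested, and the 6 members at or below 0 were Ndufa4l2, Cox4i2, Cox6a1, Cox6b2, Cox8a and Cox8c.

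All 87 members reached 1 FPKM in at least 3 libraries and were tested. At an adjusted p below 0.05 (limma, Benjamini-Hochberg over all genes) 0 of 87 passed in either direction, beside 0.775% of all genes that passed as higher and 0.465% as lower. The smallest adjusted p among members was 0.0507, of Cyc1. At an unadjusted p below 0.05, 72 of 87 were higher in mutants, beside 7.94% of all genes, and 1 was lower, Ndufa4l2, beside 6.11%. In 47 of 87 members every mutant value lay above every control value, as in 9.77% of all genes, and in 2, Ndufa4l2 and Cox6a1, every mutant value lay below, as in 9.40%. The members vary together, so these counts do not add up as separate pieces of evidence. In 36 of 87 members the value of mutant 3 was below that of control 3, and in 79 of 87 both mutants 1 and 2 exceeded all controls. The matching shares of all genes were not computed, so these counts only describe how the libraries of the members lie. The calls depended on which of these libraries were in the fit. Without mutant 3, 59 members passed as higher, beside 1.74% of all genes, and without control 3, 4 passed, beside 0.943%. Without control 1, control 2, mutant 1 or mutant 2, 0 passed, beside 0.0442%, 0.044%, 0.0276% and 0.0991% of all genes. With control 3 and mutant 3 both left out, a setting chosen after the data were seen, 72 passed as higher, beside 2.2%.

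Scaling and filter moved the calls as well. After quantile normalization 27 members passed as higher, beside 1.28% of all genes, and Ndufa4l2 passed as lower, beside 0.919%. With a filter at 5 FPKM 15 passed, beside 2.43%, and after median scaling 4 passed, beside 0.903%. With a pseudocount of 0.1, without a filter and with moderation that was not robust, 0 passed, beside 0.545%, 0.356% and 0.572%.

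**Figure D1:**
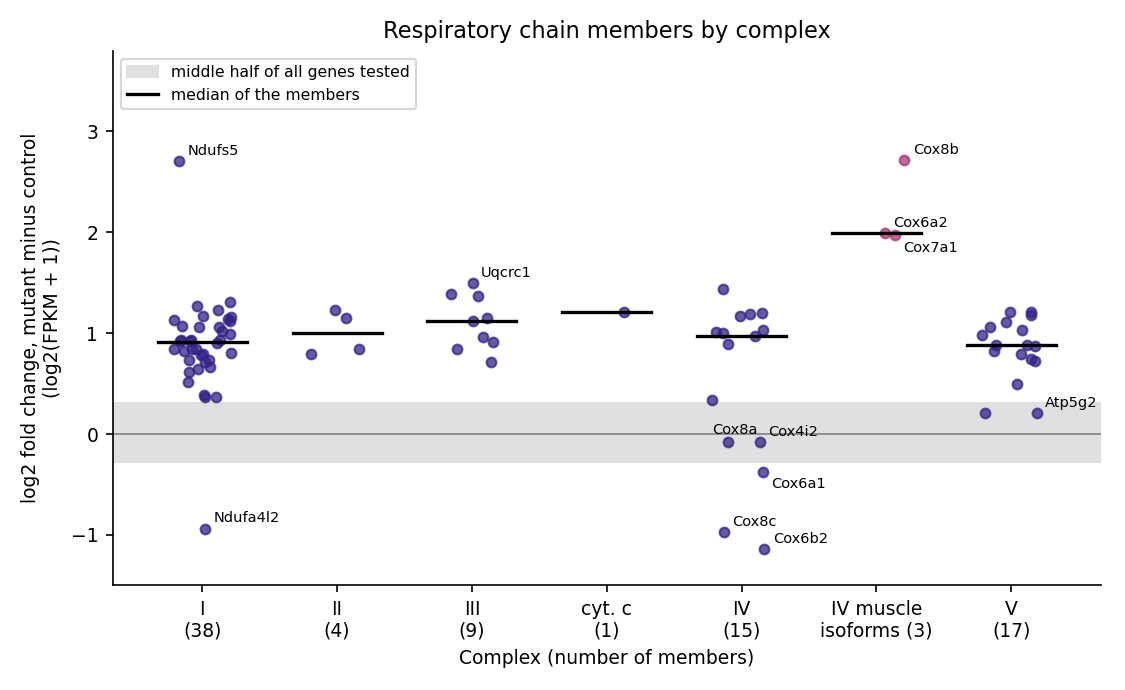
Log2 fold change (mutant minus control, log2(FPKM + 1)) of each of the 87 members, 1 point per gene, by complex; black bars are medians and the grey band is the interquartile range of all genes tested. The 3 muscle isoforms lie highest with Ndufs5, whose control values were erratic, and Ndufa4l2 lies apart below the other genes named for complex I.

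**Figure D2:**
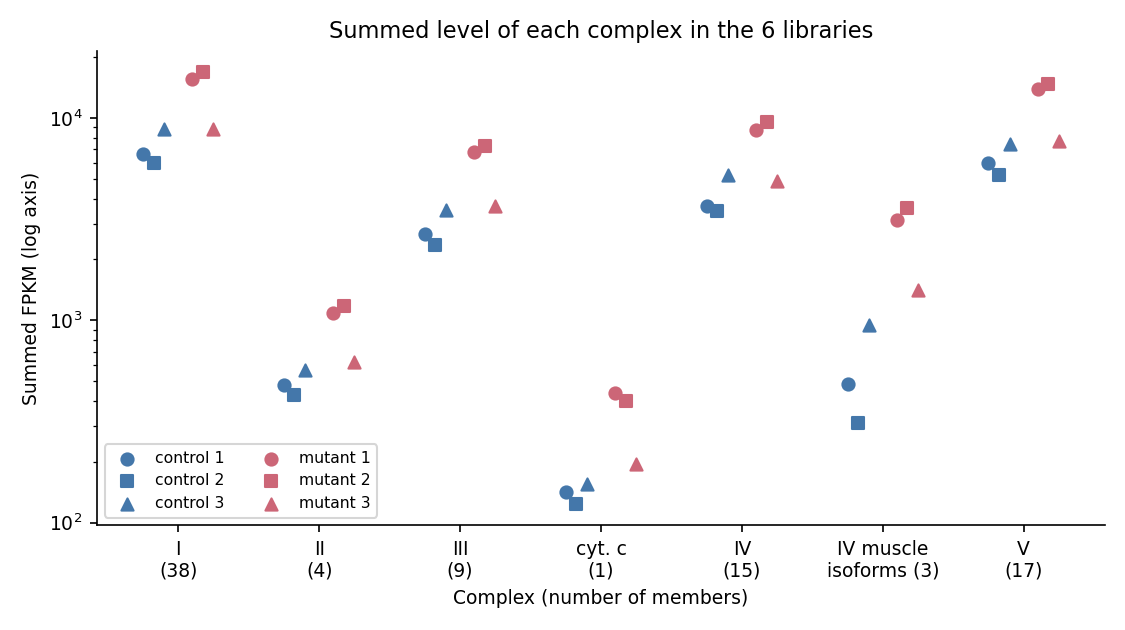
Summed FPKM (log axis) of the members of each complex in each of the 6 libraries, controls in blue and mutants in red, with a marker shape for each library number. In complexes I, III and V the sums of mutant 3 and control 3 lie close together, and mutants 1 and 2 lie above both. In complex IV without muscle isoforms mutant 3 lies below control 3.

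At an unadjusted p below 0.05, 7.94% of all genes were higher in mutants and 6.11% lower. Among the genes named for complex I, the entry point of NADH electrons, 33 of 38 were higher and 1 lower at that threshold. Their median log2 fold change was 0.92. Their summed FPKM was 6625, 5962 and 8868 in the controls and 15605, 16816 and 8872 in the mutants, so that mutant 3 and control 3 were level. The smallest p values were those of Ndufa6 and Ndufb9, both accessory subunits. Ndufa6 (chromosome 15, 82350140 to 82354322, minus strand, mm10) measured 158, 135 and 184 FPKM in the controls and 438, 446 and 261 FPKM in the mutants. The groups did not overlap, and its log2 fold change was 1.23 ± 0.24 (SE; limma adjusted p = 0.0521). Ndufb9 measured 336, 261 and 447 FPKM in the controls and 1019.6, 1000.4 and 587 FPKM in the mutants, again without overlap (1.31 ± 0.28, adjusted p = 0.0614). The 7 nuclear-encoded core subunits, which carry the flavin and iron-sulfur centres, were all among those with an unadjusted p below 0.05, with a median of 0.84. The median over the 29 accessory subunits was 0.93, so that core and accessory genes were displaced by similar amounts. That difference was not tested.

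The highest level in complex I by name was that of Ndufa4, with 532, 464 and 773 FPKM in the controls and 1659, 1881 and 855 FPKM in the mutants (log2 fold change 1.27 ± 0.32, adjusted p = 0.0988). Its paralogue Ndufa4l2, a target of hypoxia-inducible factor that lowers the use of oxygen, went the other way. Ndufa4l2 (chromosome 10, 127514967 to 127517154, plus strand, mm10) measured 137, 167 and 227 FPKM in the controls and 106, 79.7 and 86.4 FPKM in the mutants. All mutant values were below all control values, and control 3, the highest of the controls for most members, was also the highest here. The log2 fold change of Ndufa4l2 was -0.94 ± 0.23 (adjusted p = 0.0887). Exons of Ndufa4l2 overlap those of Shmt2 on the other strand, and the libraries keep no strand. Such an overlap was found for 26 members of the chain, Cox4i1, Cox5a, Atp5j and Uqcrb among them. Ndufs5, a small accessory subunit, was erratic, at 44.5, 0.006 and 23.5 FPKM in the controls and 54.1, 166 and 32.7 FPKM in the mutants. Such a value near 0 for a gene of every cell can be a failed estimate of its level, and no fold is drawn from it.

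Complex II, the succinate dehydrogenase shared with the tricarboxylic acid cycle, had a median log2 fold change of 0.997. At an unadjusted p below 0.05, 4 of 4 genes were higher, beside 7.94% of all genes. Sdha, the flavoprotein, measured 63.2, 39.9 and 57.0 FPKM in the controls and 132, 159 and 91.6 FPKM in the mutants (1.23 ± 0.26, adjusted p = 0.0600). Sdhc, a membrane anchor, measured 74.5, 66.4 and 84 FPKM in the controls and 195, 218 and 109 FPKM in the mutants (1.15 ± 0.27, adjusted p = 0.0779). In both genes the groups did not overlap. Sdhb, the iron-sulfur subunit and the most abundant of the 4 per length, did overlap, at 194, 159.5 and 242 FPKM in the controls and 416, 427 and 221 FPKM in the mutants (adjusted p = 0.237).

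Complex III, which passes electrons from ubiquinol to cytochrome c, had the highest median among the complexes without muscle isoforms, at 1.12. At an unadjusted p below 0.05, 9 of 9 genes of complex III were higher, beside 7.94% of all genes. Cyc1, the haem-carrying cytochrome c1 (chromosome 15, 76343523 to 76346260, plus strand, mm10), measured 152, 124 and 152 FPKM in the controls and 439.6, 473 and 238 FPKM in the mutants. The controls of Cyc1 lay close together and every mutant stood above them, and the log2 fold change was 1.37 ± 0.27 (limma adjusted p = 0.0507). Uqcrc1, a core protein of the complex, had the largest difference of complex III at 133, 101 and 159 FPKM in the controls and 412, 548 and 216 FPKM in the mutants (1.497 ± 0.33, adjusted p = 0.0688). Uqcrb, a small subunit near the ubiquinone site and the most abundant of the complex, measured 549.7, 532 and 689 FPKM in the controls and 1626, 1593 and 799 FPKM in the mutants (1.12 ± 0.28, adjusted p = 0.102). Transcripts of 3 other genes are nearly identical to that of Uqcrb, so its reads may be shared with theirs. Cycs, the mobile carrier and a group of its own, measured 142, 124 and 155 FPKM in the controls and 438, 401 and 196 FPKM in the mutants (1.21 ± 0.30, adjusted p = 0.0926), with every mutant above the controls as in Cyc1.

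Complex V, ATP synthase, had 13 of 17 genes higher at an unadjusted p below 0.05, beside 7.94% of all genes. Its median log2 fold change was 0.88. The catalytic subunit Atp5b measured 630.3, 518 and 679.9 FPKM in the controls and 1696, 1763 and 929.6 FPKM in the mutants (1.21 ± 0.26, adjusted p = 0.0646). Atp5o, the stalk protein that links the catalytic head to the membrane part, measured 297, 282 and 343 FPKM in the controls and 874, 857 and 473 FPKM in the mutants (1.21 ± 0.25, adjusted p = 0.0614). Neither Atp5b nor Atp5o overlapped between the groups, and 4 of the 5 genes of the catalytic head had an unadjusted p below 0.05. The Atp5o entry shares exon positions on the same strand with Donson and with another entry named Atp5o. Transcripts of 1 other gene entry are nearly identical to that of Atp5o. Whether this is the other entry of the same name was not determined, and reads may be shared with it. Atp5j, another stalk subunit and the gene of complex V with the highest level, did overlap, at 717, 646 and 1041 FPKM in the controls and 1639, 1709.7 and 889 FPKM in the mutants (adjusted p = 0.254).

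The 3 Atp5g genes encode the same mature subunit c of the rotor ring behind different import signals. Atp5g1 measured 327, 275 and 505 FPKM in the controls and 915, 1016 and 421 FPKM in the mutants (log2 fold change 1.03 ± 0.35, adjusted p = 0.217). Atp5g3, the most abundant, measured 549, 513 and 729.7 FPKM in the controls and 1586, 1804 and 831 FPKM in the mutants (1.18 ± 0.30, adjusted p = 0.101). Atp5g2 stayed in a narrow band, at 299.6, 268 and 308 FPKM in the controls and 348, 397 and 277 FPKM in the mutants (0.21 ± 0.19, adjusted p = 0.731). Of the 3 genes only Atp5g3 was without overlap between the groups, and whether the 3 genes differ from each other was not tested.

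Complex IV, cytochrome c oxidase, was the most mixed. Without the muscle isoforms, its 15 members summed to 3684, 3479 and 5228 FPKM in the controls. In the mutants the sums were 8746, 9605 and 4877 FPKM, so that mutant 3 lay below control 3. On the log2 scale 5 of the 15 members lay at or below 0, around a median of 0.97. At an unadjusted p below 0.05, 7.94% of all genes were higher, and so were 9 of these 15 members. Cox6b1, the member of highest level among them and a subunit that joins the dimer, measured 553, 514 and 731 FPKM in the controls and 1378, 1646 and 782 FPKM in the mutants (1.03 ± 0.28, adjusted p = 0.131). Cox4i1, the broadly expressed form of the regulatory subunit 4, measured 427, 464 and 607 FPKM in the controls and 1049, 1438 and 645 FPKM in the mutants (1.0 ± 0.29, adjusted p = 0.145). Cox5a, a subunit on the matrix side, had the largest difference of the 15 and was chosen after its values were seen. Its FPKM were 257, 220.0 and 414 in the controls and 1027, 995 and 454 in the mutants, without overlap (1.43 ± 0.35, adjusted p = 0.0928). The paralogue of Cox4i1, Cox4i2, known from lung and from low oxygen, was low and level, at 26.8, 16.2 and 30.2 FPKM in the controls and 21.5, 21.2 and 24.2 FPKM in the mutants (-0.08 ± 0.25, adjusted p = 0.932). The forms known from testis were low as well. Cox6b2 was at 13.6, 4.70 and 10.9 FPKM in the controls and at 8.17 and 9.05 FPKM in mutants 1 and 2, and was listed at 0 in mutant 3. Cox7b2 was at 7.8 to 12.5 FPKM in the controls and 12.1 to 31.5 FPKM in the mutants, and Cox8c was at 7.84 to 28.6 and 2.16 to 15.6 FPKM, and the groups overlapped in all 3 genes. Cox7b2 was among the 9 genes with an unadjusted p below 0.05 (0.97 ± 0.34, adjusted p = 0.228).

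The muscle isoforms of complex IV had the largest ratios of mean FPKM among the members, 3.88 for Cox6a2, 3.94 for Cox7a1 and 6.12 for Cox8b. Cox6a2 (chromosome 7, 128205435 to 128206387, minus strand, mm10) measured 159, 109 and 300.2 FPKM in the controls and 869, 916 and 419 FPKM in the mutants. Cox7a1 (chromosome 7, 30184144 to 30186078, plus strand) measured 154, 119 and 307 FPKM in the controls and 832, 1068 and 388 FPKM in the mutants. Cox8b (chromosome 7, 140898945 to 140900446, minus strand) measured 170.1, 81.1 and 343 FPKM in the controls and 1431, 1607 and 599 FPKM in the mutants. In all 3 genes mutants 1 and 2 were high, control 2 was the lowest, and the groups did not overlap. The log2 fold changes were 1.995 ± 0.40 for Cox6a2 (limma adjusted p = 0.0557), 1.97 ± 0.43 for Cox7a1 (adjusted p = 0.0646) and 2.72 ± 0.53 for Cox8b (adjusted p = 0.0521), and none passed. All 3 passed without mutant 3 or without control 3, and none of them passed without any other single library or with the replicate block. Exons of Cox6a2 overlap those of Itgad on the opposite strand.

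None of the broadly expressed partners passed the test, and the differences between them were not tested. Cox6a1 measured 424, 476 and 481 FPKM in the controls and 399, 399 and 280.3 FPKM in the mutants, all below the controls (log2 fold change -0.37 ± 0.20, adjusted p = 0.457). Cox8a measured 388, 397 and 562 FPKM in the controls and 567, 447 and 289.9 FPKM in the mutants, with full overlap (-0.08 ± 0.27, adjusted p = 0.941, but 0.09 without control 3 and 0.19 without mutant 3). Cox7a2 measured 214, 205 and 262 FPKM in the controls and 545, 544 and 250.2 FPKM in the mutants (0.89 ± 0.30, adjusted p = 0.211), with mutant 3 inside the range of the controls. Cox7a2l, the supercomplex factor related to Cox7a2, measured 81.4, 87.5 and 99.5 FPKM in the controls and 106, 126 and 108 FPKM in the mutants (0.34 ± 0.17, adjusted p = 0.452), a small difference without overlap.

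As a share of each pair's summed FPKM, Cox6a2 made up 27.3%, 18.6% and 38.4% in the controls and 68.5%, 69.6% and 59.9% in the mutants. The share of Cox7a1 beside Cox7a2 was 41.8%, 36.8% and 53.9% in the controls and 60.4%, 66.3% and 60.8% in the mutants. Cox8b beside Cox8a took 30.5%, 17% and 37.9% in the controls and 71.6%, 78.2% and 67.4% in the mutants. In each pair the 3 mutant shares lay above the 3 control shares, mutant 3 included, and in the Cox6a and Cox8 pairs the muscle isoform was the smaller part in every control and the larger in every mutant. Fragment numbers behind these shares are unknown, so they carry no counting interval, and no test was made.

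**Figure D3:**
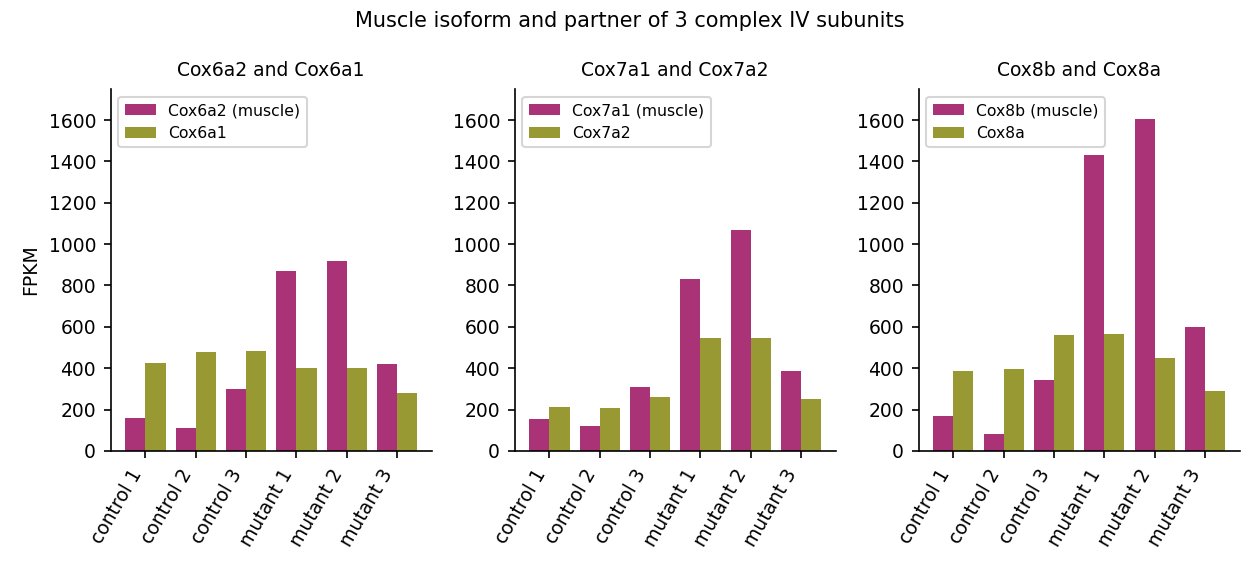
FPKM of the muscle isoform (purple) and of its broadly expressed partner (olive) in each of the 6 libraries, for 3 subunits of complex IV, with 1 bar per library. The muscle isoform exceeds its partner in every mutant library in all 3 pairs.

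The bases before the transcription start are shown for the isoform pairs because the muscle isoforms had the largest ratios of all members (RefSeq, GRCm38.p6, which has the coordinates of mm10). No promoter of Cox6a2 was found, so Cox6a1 is shown without its partner. The stretches were 250 bases long, and capitals mark matches to the motifs searched. These were the consensus of the factor NRF1, CCGGAAG of ETS factors such as GABP, AAGGTCA of oestrogen-related receptors, the E-box CAGCTG bound by myogenic factors, and MEF2 by its usual consensus, each on both strands. No motif contains another, and CAGCTG reads the same on both.
Cox7a1, chr7:30183921-30184170, plus strand: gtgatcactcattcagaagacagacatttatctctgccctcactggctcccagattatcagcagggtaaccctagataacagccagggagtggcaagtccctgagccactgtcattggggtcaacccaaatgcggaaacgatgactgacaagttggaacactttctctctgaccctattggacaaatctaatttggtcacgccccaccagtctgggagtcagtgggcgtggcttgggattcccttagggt
Cox7a2, chr9:79759854-79760103, minus strand: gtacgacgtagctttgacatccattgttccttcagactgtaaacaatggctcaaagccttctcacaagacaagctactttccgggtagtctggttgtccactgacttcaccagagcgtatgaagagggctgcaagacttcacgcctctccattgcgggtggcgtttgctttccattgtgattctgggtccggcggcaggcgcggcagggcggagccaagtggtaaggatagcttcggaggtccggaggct
Cox8b, chr7:140900447-140900696, minus strand: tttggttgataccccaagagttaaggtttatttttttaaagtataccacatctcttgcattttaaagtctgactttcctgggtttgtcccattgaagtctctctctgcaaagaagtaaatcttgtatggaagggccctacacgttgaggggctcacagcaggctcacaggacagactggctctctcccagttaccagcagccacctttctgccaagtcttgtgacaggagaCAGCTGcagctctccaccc
Cox8a, chr19:7217617-7217866, minus strand: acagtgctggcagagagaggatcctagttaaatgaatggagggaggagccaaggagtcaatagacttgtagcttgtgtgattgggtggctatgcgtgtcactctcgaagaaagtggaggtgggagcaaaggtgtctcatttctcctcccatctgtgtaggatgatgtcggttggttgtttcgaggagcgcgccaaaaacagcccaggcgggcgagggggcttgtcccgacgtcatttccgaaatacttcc
Cox6a1, chr5:115348959-115349208, minus strand: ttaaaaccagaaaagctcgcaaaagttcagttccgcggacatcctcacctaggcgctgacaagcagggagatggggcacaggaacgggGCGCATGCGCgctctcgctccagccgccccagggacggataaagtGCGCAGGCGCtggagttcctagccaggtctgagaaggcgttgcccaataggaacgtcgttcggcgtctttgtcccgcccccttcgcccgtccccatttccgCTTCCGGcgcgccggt
The windows end at the RefSeq starts, and those of Cox6a1, Cox7a1 and Cox7a2 run into the gene spans that GENCODE gives. Cox6a1 held 2 NRF1 matches and an ETS match, in a window with 62.8% G and C. Its ETS match lies in the part inside the GENCODE span. Cox8b held 1 E-box just before its start in a window with 47.2% G and C, and the windows of Cox7a1, Cox7a2 and Cox8a held none of these motifs. Promoters of 68 of the 87 members were found in the table. An NRF1 match stood in 13 of 68 (19.1%), beside 5.84% of 17492 protein-coding genes and 3.74% of all 32851 promoters. An ETS match stood in 12 (17.6%), beside 10.2% of coding genes and 6.91% of all promoters. The receptor motif stood in 5 (7.35%), beside 4.18% of coding genes, the E-box in 6 (8.82%), beside 13.8%, and MEF2 in 0, beside 0.555%. The median log2 fold change was 0.84 for the 13 members with an NRF1 match and 0.94 for the 55 without. It was 0.79 for the 12 with an ETS match and 0.96 for the 56 without. A match is a run of letters and shows no binding.

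Skeletal muscle markers moved with these results in every library. The mean of the 24 muscle markers was 6.51, 5.77 and 6.80 log2 units in the controls and 8.05, 8.22 and 7.40 in the mutants. The median over the 84 members other than muscle isoforms was 7.60, 7.37 and 7.87 in the controls and 8.71, 8.81 and 8.0 in the mutants. The mean of the 3 muscle isoforms was 7.34, 6.68 and 8.31 in the controls and 9.98, 10.2 and 8.85 in the mutants. The 6 libraries thus stood in 1 order on all 3 measures, from control 2 through control 1, control 3, mutant 3 and mutant 1 to mutant 2. With the muscle mean as a covariate, which itself differs between the groups, the median log2 fold change of the members turned to -0.16. The median over all genes tested in that fit was -0.028. Of the members 26 of 87 were above 0, and the matching share of all genes was not computed. In either direction 0 members passed, beside 0.00534% of all genes as higher. With the same covariate the log2 fold changes of Cox6a2, Cox7a1 and Cox8b were -0.06, -0.15 and -0.10.

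**Figure D4:**
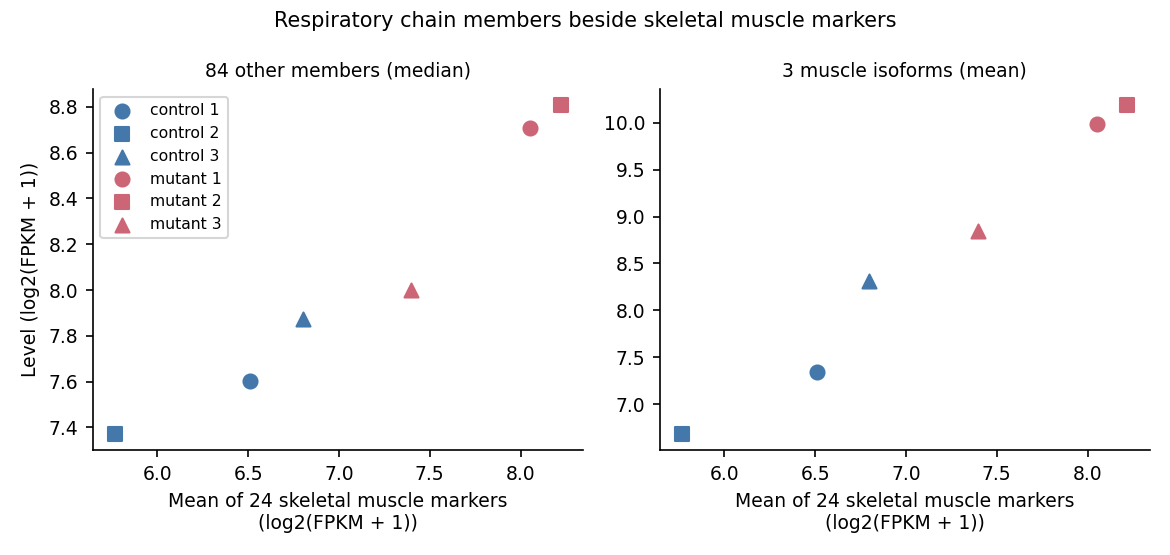
Level of the 84 other members (left, median) and of the 3 muscle isoforms (right, mean) against the mean of 24 skeletal muscle markers in each of the 6 libraries, all in log2(FPKM + 1). The libraries keep the same order on both axes, with control 3 and mutant 3 next to each other in the middle.

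Set beside Ckm, the creatine kinase of muscle fibres, chosen after its values were seen, the muscle isoforms overlapped between the groups. Cox6a2 was 35.6%, 45.4% and 57.8% of the Ckm value in the controls and 48.9%, 36.6% and 40.6% in the mutants. Cox7a1 was 34.5%, 49.8% and 59.1% of Ckm in the controls and 46.8%, 42.7% and 37.6% in the mutants. Both ranges overlapped fully. Cox8b was 38.1%, 33.9% and 66.1% of Ckm in the controls and 80.5%, 64.2% and 58.0% in the mutants, with overlap between control 3 and mutants 2 and 3. Cyc1, a gene of every cell with mitochondria, was 34%, 51.6% and 29.3% of Ckm in the controls and 24.7%, 18.9% and 23.1% in the mutants, lower in all mutants.

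Heart and brown fat also express isoforms of this kind. At an unadjusted p below 0.05, 7.94% of all genes were higher and 6.11% lower. Of 4 heart markers tested 0 passed and 0 had an unadjusted p below 0.05, and the summed level of the 5 was 36.6 to 69.5 FPKM in the controls and 43.9 to 104.7 FPKM in the mutants. Myh6, the heart myosin, measured 0.723 to 1.54 FPKM over all libraries, and Nppa and Myl7 were listed at 0 in some. Myl4 had the highest level of the 5, at 17.5, 38.4 and 58.9 FPKM in the controls and 87.8, 32.6 and 51.8 FPKM in the mutants. The sums of the groups overlapped. Of 3 brown fat markers tested 0 passed and 1 had an unadjusted p below 0.05, with a summed level of the 5 of 11.8 to 20.2 FPKM in the controls and 17.1 to 28.0 FPKM in the mutants. Ucp1, the uncoupling protein of brown fat, measured 1.94, 5.37 and 5.82 FPKM in the controls and 6.31, 5.65 and 0.460 FPKM in the mutants. Cidea, the brown fat marker with an unadjusted p below 0.05, measured 2.91, 5.86 and 9.84 FPKM in the controls and 15.3, 12.1 and 8.28 FPKM in the mutants. Brown fat sums, Ucp1 and Cidea overlapped between the groups as well. Of 5 white fat markers 0 passed and 1 had an unadjusted p below 0.05, and their summed level was 77.3 to 319 FPKM in the controls and 305 to 688 FPKM in the mutants, with overlap of control 3 and mutant 3. Fabp4, a fatty acid binding protein that endothelial cells also express, made up most of this sum, at 112, 61.5 and 291 FPKM in the controls and 621, 669 and 293 FPKM in the mutants. Of the other 4, Adipoq and Plin1 had log2 fold changes of 1.01 and 0.42, and Lep and Cidec of -0.46 and -0.45. Adipoq reached at most 16.3 FPKM. The part of muscle, heart or fat RNA in the values of the chain was not tested beyond these measurements.

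Sex moved with the groups as well. In control 3 against the 3 mutants, the libraries of 1 sex, the median log2 fold change of the members was 0.68, 11 of 87 were higher and 1 lower at an unadjusted p below 0.05, beside 5.63% and 4.08% of all genes in that fit. After adjustment 0 passed, beside 0.0289% of all genes as higher. This fit has a single control, assumed to vary as the mutants do. With Xist as a covariate the median was 0.70, 21 were higher and 1 lower at an unadjusted p below 0.05, beside 5.25% and 4.9% of all genes, and 0 passed after adjustment, beside 0.00534%.

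Other lists of mitochondrial genes are set beside the chain for their medians. The tricarboxylic acid cycle and pyruvate dehydrogenase feed the chain with NADH and succinate. Of their 17 genes, 13 were higher and 0 lower at an unadjusted p below 0.05, beside 7.94% and 6.11% of all genes. The median log2 fold change of the 17 was 0.97. Of 11 carrier and channel genes of the mitochondrial membranes, with a median of 0.79, 3 rose and 0 fell, beside 0.775% and 0.465% of all genes. Slc25a4, the ADP/ATP carrier of muscle and heart, rose from 471, 335 and 601 FPKM to 2299, 2565 and 1093 FPKM (2.03 ± 0.34, adjusted p = 0.0331). Slc25a5, the carrier of most other cells, measured 361, 383 and 372 FPKM in the controls and 423, 452 and 299.9 FPKM in the mutants (0.05 ± 0.20, adjusted p = 0.950, and -0.06 after quantile normalization). Ckmt2, the mitochondrial creatine kinase of striated muscle, rose from 44.1, 21.4 and 47.8 FPKM to 296, 377 and 122 FPKM (2.71 ± 0.44, adjusted p = 0.0294). Ucp3, an uncoupling protein relative of muscle, rose from 7.14, 2.50 and 6.77 FPKM to 24.3, 29.7 and 16.2 FPKM (1.97 ± 0.37, adjusted p = 0.0450).

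The lists for building mitochondria had medians nearer to that of all genes. Of 45 assembly factors of the respiratory complexes 0 passed (limma), and the median log2 fold change was 0.23. At an unadjusted p below 0.05, 5 of the 45 were higher and 0 lower, beside 7.94% and 6.11% of all genes. Of 13 genes of protein import 0 passed (limma), and the median was 0.13. At an unadjusted p below 0.05, 1 of the 13 was higher and 0 lower, a share close to that of all genes (7.94% and 6.11%). Of 15 regulators tested, with a median of 0.17, 1 rose and 0 fell, beside 0.775% and 0.465% of all genes. The regulator that rose was Perm1, a muscle protein that acts with the coactivator PGC-1 and oestrogen-related receptors. Perm1 went from 1.72, 0.964 and 3.31 FPKM to 20.1, 17.7 and 8.35 FPKM (2.44 ± 0.40, adjusted p = 0.0301). Ppargc1a, which encodes that coactivator, measured 7.78, 5.37 and 7.85 FPKM in the controls and 11.8, 13.1 and 8.54 FPKM in the mutants (0.60 ± 0.26, adjusted p = 0.334). Whether the medians of these lists differ from that of the respiratory members was not tested. Without mutant 3, 21 genes of these lists passed, beside 1.74% of all genes as higher. The 5 calls were all lost without control 1, control 2, mutant 1 or mutant 2. They were also all lost in the fits with a covariate and in the fit on control 3 alone against the mutants.

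**Figure D5:**
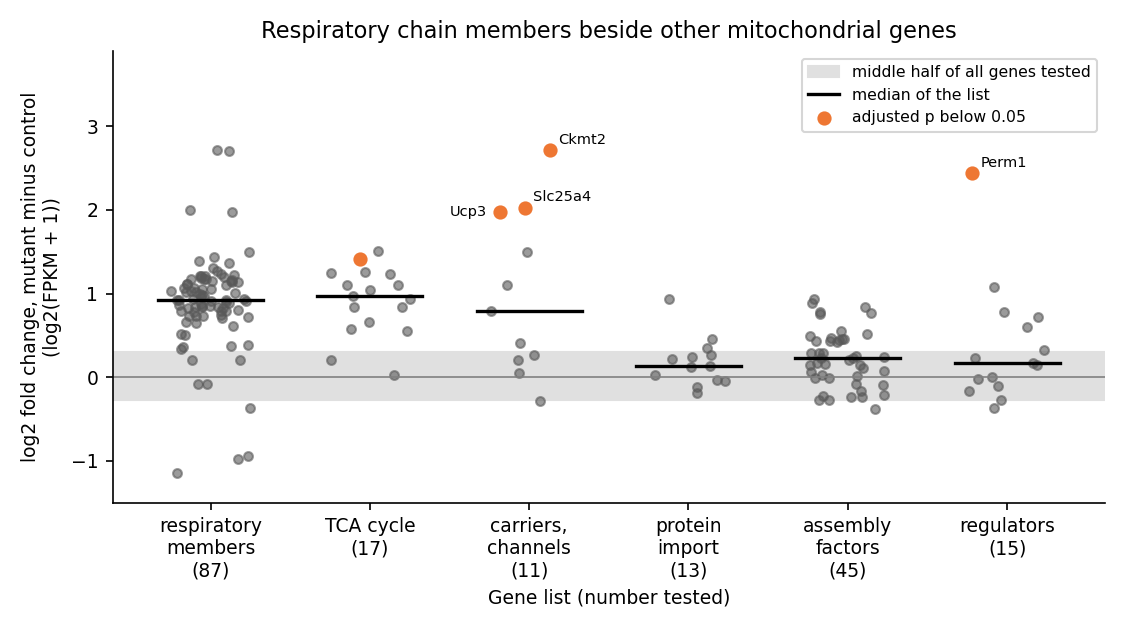
Log2 fold change (mutant minus control, log2(FPKM + 1)) of the respiratory chain members and of 5 other mitochondrial gene lists, 1 point per gene, with the genes that passed the test in orange and part of them labelled, black bars for medians and a grey band for the interquartile range of all genes tested. The tricarboxylic acid cycle genes lie at the height of the respiratory members, and the import, assembly and regulator lists have medians inside the grey band.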

How the data were processed

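RNA of 6 libraries was made into full-length cDNA with the SMART-Seq HT kit and into libraries with the Nextera kit, per the labels' protocols, which keeps no strand. The deposited tables, 1 per library, hold 24346 symbols with values that the authors made as FPKM. The unit was inferred from Cufflinks in the notes and from column sums (581072 to 738395) that differ between libraries. Per the submitters' processing notes, the tools included Cufflinks 2.2.1, SAMtools 0.1.19, Bowtie2 2.2.3 and TopHat2 2.0.13, with mm10 as the build and no order or settings. No source used here gives the annotation. Mitochondrially encoded subunits were not analysed here, and part of the single-gene results is not reported here.

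The 18715 genes that reached 1 FPKM in 3 or more libraries were tested as log2(FPKM + 1), using limma 3.58.1 under R 4.3.3 (limma-trend, robust moderation, group only), with Benjamini-Hochberg adjustment and a threshold of 0.05. The procedure was tested on simulated data. Named members were the isoforms of subunits, the 2 smallest p and the highest level in each complex, and, of the other lists, up to 3 called genes with Ppargc1a, Slc25a4, Slc25a5 and Ckmt2. The members and lists were chosen with earlier results of these data known. Positions and exon overlaps came from GENCODE M21. A match of at least 95% over at least 50% of the member's longest coding transcript counted as nearly identical. Any other gene entry could count, also one of the same symbol, and 7 members had such a match. Short transcripts (30 members under 700 bases) have less certain FPKM. Alternatives were other normalization, pseudocount, filters and moderation, a replicate block, covariates and leaving out libraries.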

Additional observations from a re-analysis of the deposited data

How the results depend on the processing

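Members that passed as higher numbered 0, and 27 after quantile normalization (1 lower), 4 after median scaling, 15 with a filter at 5 FPKM, 0 to 59 without 1 library (59 without mutant 3) and 72 without control 3 and mutant 3, the last chosen after the data were seen. They numbered 0 with a pseudocount of 0.1, without a filter, without robust moderation and with a replicate block. Of the other mitochondrial lists 5 passed, all higher, beside 0.775% of all genes as higher. After quantile normalization 10 passed, beside 1.28%, and with the filter at 5 FPKM 12 passed, beside 2.43%. Without 1 library 0 to 21 passed, with 21 without mutant 3, beside 1.74%. Without control 3 and mutant 3, 21 passed, beside 2.2%. With the replicate block, or with Xist or the muscle mean as a covariate, 0 passed. No pairing by replicate number was visible, as correlations of same-numbered deviations were 0.006, -0.016 and -0.009. With 3 libraries per group these values cannot exclude a pairing. With the block 64 members were higher at an unadjusted p below 0.05, beside 7.25% of all genes. With the block 0 muscle, chondrocyte or endothelial markers passed.

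With the muscle mean as a covariate, median log2 fold changes were -0.163 for all members, -0.172 without muscle isoforms, -0.226 in complex I, 0.1 in II, -0.045 in III, -0.265 in IV, -0.101 in the muscle isoforms and -0.127 in V. Of the named genes, those that turned negative were -0.055 for Cox6a2, -0.152 for Cox7a1, -0.101 for Cox8b, -0.623 for Atp5g1, -0.339 for Atp5g2, -0.051 for Atp5g3, -0.473 for Atp5j, -0.042 for Cox4i1, -0.143 for Cox6b1, -0.265 for Cox7a2, -0.163 for Ndufa4, -0.442 for Sdhb, -0.019 for Uqcrc1, -0.265 for Ppargc1a and -0.344 for Slc25a5. Above 0 were Cyc1 (0.324), Atp5o (0.295), Ndufa6 (0.247), Sdha (0.154), Atp5b (0.144), Sdhc and Cox7a2l (both 0.127), Ndufb9 (0.048), Uqcrb (0.04), Cox7b2 (1.8) and the named genes of the other lists that had passed, none of which passed here. The cause of these reversals was not tested. Without control 3 and mutant 3 the medians were 1.373 for all members, 1.372 without muscle isoforms, 1.325 in complex I, 1.384 in II, 2.789 in the muscle isoforms and 1.314 in V. In that setting Cox6a2, Cox7a1 and Cox8b (2.753, 2.789 and 3.678) passed, and Cox4i2, Cox6b2 and Cox8a turned to 0.031, 0.074 and 0.358.

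The median of the muscle isoforms was 1.205 without controls 1 and 2 and 1.252 with Xist as a covariate. Cox6a2 passed at 1.85 after quantile normalization, 1.983 after median scaling and 1.995 with the filter at 5 FPKM. Cox7a1 passed at 1.858 after quantile normalization and 1.971 with that filter. Cox8b passed at 2.521 after quantile normalization and 2.707 after median scaling. Without 1 library they ranged from 1.661 to 2.39, 1.668 to 2.398 and 2.198 to 3.231. Cox4i2 ranged from -0.342 to 0.088 without 1 library, above 0 without control 1 (0.005) or control 3 (0.088). Cox8a ranged from -0.297 to 0.186, above 0 without control 3 (0.093) or mutant 3 (0.186). Slc25a5 ranged from -0.063 to 0.232, below 0 without mutant 1 (-0.014) or mutant 2 (-0.063), and was -0.059 after quantile normalization.

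Without 1 library the ratio of summed FPKM ranged from 1.711 to 2.267 in complex I, 1.741 to 2.302 in II, 1.843 to 2.478 in III, 2.126 to 2.992 in cytochrome c, 1.649 to 2.221 in IV, 3.78 to 6.84 in the muscle isoforms and 1.742 to 2.306 in V. The differences in share ranged from 33.17 to 43.1 percentage points for Cox6a2, 14.61 to 23.18 for Cox7a1 and 38.22 to 48.69 for Cox8b. Fragment numbers are unknown, so the counting error of low genes could not be given.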
